A study of Mus musculus with 9 samples.

Results

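The expression of 10 genes of the cartilage program was examined in RNA-seq libraries of mouse calvarial cells undergoing osteoblast differentiation. They comprise 7 genes for cartilage matrix proteins (Acan, Comp, Matn2, Matn3, Matn4, Hapln1 and Chad) and 3 genes for Sox transcription factors (Sox5, Sox6 and Sox9). The genes were chosen by name, as every row of the expression tables with one of these symbols, and all 10 were found among the 40548 genes listed. Reads were detected from all 10, and 9 passed the filter for the test between day 0 and day 7.

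The study followed freshly isolated skull cells as they became mineralizing osteoblasts. All 9 libraries came from calvaria of C57BL/6 pups, with an age of postnatal day 2 to 3 in the sample labels. Cells were cultured to confluence and collected either undifferentiated (day 0) or after 4 or 7 days in mineralization medium (day 4 and day 7), with 3 replicates per stage. No transgene, deletion or drug distinguished the stages. The cultures are primary digests of a tissue freed of periosteum and are not clonal, the methods describe pups of both sexes and a wider age range, and the labels name collagenase before trypsin only for cells that had mineralized, so harvest and stage cannot be told apart. In bulk RNA, fewer cells of a type and less RNA per cell also cannot be told apart.

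The libraries held 7741204 to 37306090 reads on genes, and the 3 day 4 libraries, whose values lie in separate tables, were the deepest. In comparisons with day 4, stage thus cannot be told apart from depth or from the separate tables. Levels are given as RPKM (reads on a gene relative to its length and to the library's total), which can be compared between genes. The osteoblast label held: 9 of 10 osteoblast marker genes rose from day 0 to day 7 in the limma test and none fell. The level of Ibsp, the bone sialoprotein gene, ranged from 3.38 to 4.56 RPKM at day 0 and from 2338 to 3217 RPKM at day 7, and Col1a1, the main collagen of bone, rose by 1.35 on the log2 scale. Markers of other cell types were also present. All 8 macrophage markers rose, led by C1qa (log2 fold change of 1.60), and their summed level was 48.4 to 80.8 RPKM at day 0 and 94.1 to 125 RPKM at day 7. Of the 8 tendon and ligament markers, 7 were tested. Thbs4 rose, 4 fell, led by Mkx (log2 fold change of -1.12), and the summed level was 587 to 671 RPKM at day 0 and 494 to 679 RPKM at day 7. Endothelial markers were near absent: none of 7 passed the filter, and Emcn had no read in any library. The 9 Schwann and glial markers summed to 3.58 to 9.64 RPKM over all libraries. Of these, 3 were tested and S100b, which chondrocytes also express, fell by 0.73 on the log2 scale. Of the 8 muscle markers, 2 were tested and rose, led by Des (log2 fold change of 2.36), whereas Myf5 had no read. Of the 7 adipocyte markers, Lpl (log2 fold change of 1.17) rose, while Lep and Cidec had no read. What part these other cells had in the levels of the cartilage genes was not tested.

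Hyaline cartilage is built on fibrils of type II collagen that enclose aggrecan, a very large proteoglycan loaded with chondroitin sulfate. Aggrecan binds to hyaluronan, and link protein, the product of Hapln1, locks the complex together. Matrilins and COMP bridge collagen fibrils and proteoglycans. SOX9 is required for chondrocyte formation and acts with SOX5 and SOX6 on enhancers of Acan, Col2a1 and other matrix genes. Most bones of the skull vault form directly from mesenchyme without a cartilage model, although cartilage underlies parts of the calvaria in newborn mice.

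SOX proteins recognise the core ACAATG or the related ACAAAG. RefSeq promoter windows of the GRCm38.p6 assembly, from 250 bases before to 50 bases after a start site, were at hand for 7 of the 10 genes and covered 13 start sites. Neither core, on either strand, occurred in any of the 6 windows of the matrix genes, whereas 6 of the 7 windows of Sox5 and Sox6 held at least 1. All but 1 of those 7 windows belong to Sox6. The bases G and C made up 52.7% to 74.0% of the matrix windows and 36.7% to 63.3% of the Sox windows. The part of base composition in this contrast was not tested. Over all 32851 windows, ACAATG occurred in 12.57%, ACAAAG in 18.71% and at least 1 of them in 28.6%. The 3 windows shown are those of Acan, which holds none, of Sox5, which holds 1 at 154 bases before the start, and of the third of 6 start sites of Sox6, which holds 4, the most of the 13. Capitals mark the cores, which read CATTGT and CTTTGT on the opposite strand. A match is a description of letters and not of binding, and the absence of one says only that these letters are not in the window.
Acan, chr7:79052976-79053275, plus strand: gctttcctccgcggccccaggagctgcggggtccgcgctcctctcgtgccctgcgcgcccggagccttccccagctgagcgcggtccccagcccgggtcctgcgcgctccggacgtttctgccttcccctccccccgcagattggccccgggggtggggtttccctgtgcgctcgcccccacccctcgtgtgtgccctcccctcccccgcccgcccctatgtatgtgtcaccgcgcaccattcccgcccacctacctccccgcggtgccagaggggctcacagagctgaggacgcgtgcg
Sox5, chr6:143947057-143947356, minus strand: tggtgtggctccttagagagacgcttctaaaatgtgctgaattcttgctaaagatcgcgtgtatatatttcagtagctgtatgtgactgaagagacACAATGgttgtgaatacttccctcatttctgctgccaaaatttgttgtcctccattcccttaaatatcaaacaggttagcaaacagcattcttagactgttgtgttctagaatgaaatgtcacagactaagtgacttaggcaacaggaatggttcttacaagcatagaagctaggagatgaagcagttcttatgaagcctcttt
Sox6, chr7:115995037-115995336, minus strand: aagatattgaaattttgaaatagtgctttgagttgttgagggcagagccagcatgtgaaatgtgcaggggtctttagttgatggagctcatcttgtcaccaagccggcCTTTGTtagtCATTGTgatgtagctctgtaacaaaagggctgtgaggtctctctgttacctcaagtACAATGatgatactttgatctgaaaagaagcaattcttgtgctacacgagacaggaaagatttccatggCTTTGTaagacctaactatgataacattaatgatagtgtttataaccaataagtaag

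In the comparison of day 7 with day 0, 7 of the 9 tested genes changed. Acan, Comp and Matn4 rose, whereas Sox5, Sox6, Sox9 and Matn2 fell, although the day 0 and day 7 libraries of Acan overlapped. Hapln1 and Matn3 did not pass the test. Among all 12712 genes tested, 31.2% were called, 12.6% as higher and 18.6% as lower. The test was limma on log2(CPM + 0.5), where CPM is reads on a gene scaled to the library's total, with a Benjamini-Hochberg adjusted p threshold of 0.05. Fold changes on this scale understate those of low genes. All genes together had a median log2 change of -0.11, and the 9 genes had -0.40.

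**Figure D1:**
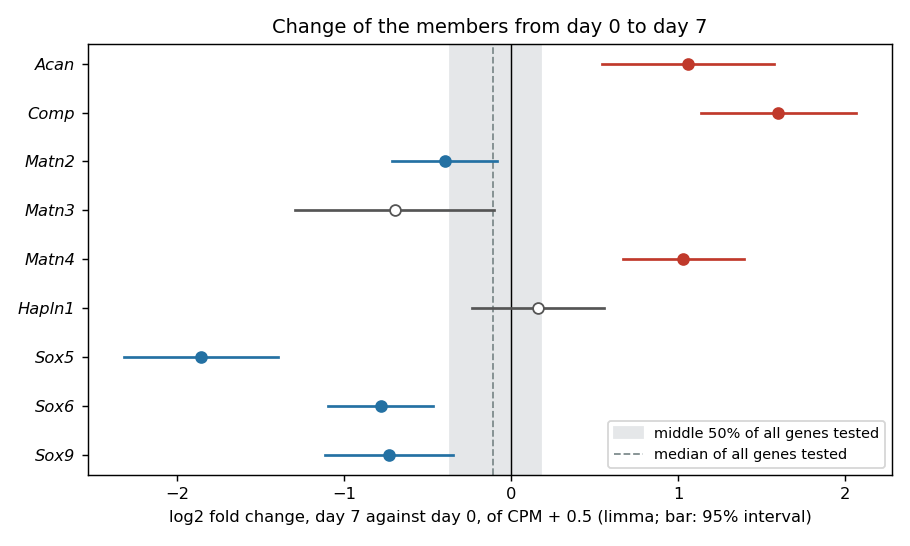
Change between day 0 and day 7 in log2(CPM + 0.5) (x axis) for the 9 tested genes (y axis), from limma, with 95% intervals and 3 libraries per stage. Filled red and blue points passed the adjusted p threshold of 0.05 and open points did not. The grey band spans the middle 50% of all genes tested and the dashed line their median of -0.11. Comp lies farthest to the right at 1.60 and Sox5 farthest to the left at -1.86.

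Aggrecan, encoded by Acan (ENSMUSG00000030607, chromosome 7, 79053483 to 79115099, forward strand), is the main proteoglycan of cartilage. At day 0 its level was 9.03, 2.97 and 3.63 RPKM in replicates 1, 2 and 3. At day 4 it was 8.49, 9.94 and 7.19 RPKM, and at day 7 it was 19.02, 7.70 and 6.17 RPKM. Replicate 1 stood far above the other libraries at both day 0 and day 7, and the highest day 0 library exceeded 2 of the 3 day 7 libraries. The mean went from 5.21 ± 3.32 RPKM at day 0 to 10.96 ± 7.02 RPKM (SD, n = 3 each), a ratio of 2.10. The log2 fold change was 1.06 (95% interval 0.55 to 1.57, adjusted p = 9.94e-04 in limma), but the stages overlapped. An exact two-sided permutation test of the 6 values gave p = 0.3, where 0.1 is the smallest possible. With variances estimated robustly, the 95% interval widened to -0.87 to 2.99 and the limma call ended (adjusted p = 0.348). The call was also lost with edgeR (0.0568) or DESeq2 (0.14), and with TMM (0.0504) or median-of-ratios (0.0513) scaling. It also ended without day 7 replicate 1 (log2 fold change of 0.58, adjusted p = 0.142) or day 0 replicate 3 (0.118), within a range of 1.95e-14 to 0.348 over 21 alternatives.

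COMP, the cartilage oligomeric matrix protein, is a pentameric glycoprotein that is also made by tendon. Comp (ENSMUSG00000031849, chromosome 8, 70373558 to 70382066, forward strand) was at 13.35, 5.45 and 5.48 RPKM at day 0 and at 6.10, 3.15 and 3.72 RPKM at day 4. It then reached 37.58, 20.38 and 15.38 RPKM at day 7. Every day 7 library was above every library of day 0 and day 4, while day 0 and day 4 overlapped. Of all genes, 16.9% had every day 7 library above every day 0 library, and 13.8% had every day 7 library above every day 4 library. The log2 fold change from day 0 to day 7 was 1.60 (95% interval 1.13 to 2.06, adjusted p = 2.20e-07 in limma). Robust variances widened the interval to 0.06 to 3.14 and ended this call (adjusted p = 0.113 in limma). The call held in the other 20 of 21 alternatives, whose lowest adjusted p was 5.55e-23. Mean Comp was below mean Acan only at day 4, where it was 4.32 ± 1.57 RPKM against 8.54 ± 1.38 RPKM for Acan (SD, n = 3).

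The matrilins, adaptor proteins of the pericellular and interterritorial matrix, did not move as a group. Matn4 (ENSMUSG00000016995, chromosome 2, 164389393 to 164405160, reverse strand) rose from 15.01, 14.45 and 9.98 RPKM at day 0 to 33.70, 21.59 and 19.87 RPKM at day 4. It stood at 36.74, 18.75 and 27.15 RPKM at day 7. Both later stages lay above every day 0 library and overlapped each other. Of all genes, 21.1% had every day 4 library above every day 0 library. By day 7 it had risen by a log2 fold of 1.03 (95% interval 0.67 to 1.39, adjusted p = 9.02e-06 in limma), and the call held in all 21 alternatives. Matn4 shares 149 exon bases, 2.88% of its own, with Rbpjl on the opposite strand, which did not exceed 1.51 RPKM in any library. The sources used here do not give the strand setting of the counting.

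Matn2 (ENSMUSG00000022324, chromosome 15, 34306677 to 34436273, forward strand), a matrilin found widely outside cartilage, had the highest mean of the 10 genes at day 0. Its level was 26.37, 32.20 and 23.24 RPKM at day 0, 22.26, 21.28 and 22.15 RPKM at day 4, and 20.32, 19.10 and 22.05 RPKM at day 7. Both later stages lay below day 0 and overlapped each other. From day 0 to day 7 the log2 fold change was -0.40 (95% interval -0.72 to -0.08, adjusted p = 0.0472 in limma). This call was held by 10 of 21 alternatives, with adjusted p from 0.00283 to 0.33.

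Matn3 (ENSMUSG00000020583, chromosome 12, 8947929 to 8972028, forward strand), a matrilin of the skeleton, was scarce. Its level was 0.710, 0.361 and 0.300 RPKM at day 0, 0.505, 0.338 and 0.515 RPKM at day 4, and 0.291, 0.124 and 0.212 RPKM at day 7. The day 7 libraries lay below all others, but the day 0 values rested on 30, 13 and 7 reads. Its log2 fold change of -0.70 (95% interval -1.29 to -0.10) did not pass (adjusted p = 0.0664 in limma), and adjusted p ranged from 0.0366 to 0.394 over 21 alternatives, 3 of which called it. Matn1, the founding cartilage matrilin, had at most 4 reads in any library.

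Hapln1 (ENSMUSG00000021613, chromosome 13, 89539796 to 89611652, forward strand), the link protein gene, kept a similar level in most libraries. It was at 6.02, 5.51 and 5.13 RPKM at day 0, 7.02, 6.15 and 7.87 RPKM at day 4, and 10.16, 4.13 and 5.68 RPKM at day 7. Day 7 replicate 1 was the highest of the 9 libraries and day 7 replicate 2 the lowest. All day 4 libraries lay above all day 0 libraries. The day 7 difference was 0.16 on the log2 scale (95% interval -0.24 to 0.56, adjusted p = 0.58 in limma) and turned negative without day 7 replicate 1 (-0.19).

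Chad (ENSMUSG00000039084, chromosome 11, 94565047 to 94569127, forward strand), which encodes the cell-binding protein chondroadherin, was at the edge of detection. It had 5, 5 and 4 reads at day 0, 8, 19 and 17 reads at day 4, and 10, 11 and 7 reads at day 7. These corresponded to 0.212, 0.249 and 0.307 RPKM, to 0.145, 0.303 and 0.281 RPKM, and to 0.436, 0.613 and 0.267 RPKM. All 3 stages overlapped, and Chad fell under the filter of a mean CPM of 1. Exact Poisson 95% intervals, which cover counting error only, reached from 0.0689 to 0.495 RPKM for day 0 replicate 1 and from 0.306 to 1.10 RPKM for day 7 replicate 2, so no difference was detectable at this depth.

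The 3 Sox genes fell together. Sox9 (ENSMUSG00000000567, chromosome 11, 112782224 to 112787760, forward strand), the master regulator of chondrocytes, was at 4.83, 4.25 and 5.31 RPKM at day 0 and at 3.67, 3.72 and 3.99 RPKM at day 4. At day 7 it was at 3.81, 2.38 and 2.49 RPKM. Day 0 lay above both later stages, which overlapped. Of all genes, 25.4% had every day 7 library below every day 0 library and 22.2% had every day 4 library below every day 0 library. The log2 fold change from day 0 to day 7 was -0.73 (95% interval -1.11 to -0.35, adjusted p = 0.00211 in limma). The call was lost only in voomWithQualityWeights on recovered reads (log2 fold change of -0.45, adjusted p = 0.0568), and the lowest adjusted p of the 21 alternatives was 5.45e-04.

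SOX5 and SOX6 are closely related partners of SOX9 without a transactivation domain of their own. Sox6 (ENSMUSG00000051910, chromosome 7, 115470872 to 116038796, reverse strand) was the most abundant of the 3 at every stage. It declined in steps, from 9.68, 9.85 and 9.12 RPKM at day 0 to 7.44, 6.25 and 7.20 RPKM at day 4 and 6.24, 4.95 and 5.46 RPKM at day 7. No 2 stages overlapped, and Sox6 was the only one of the 10 genes for which this held, although the lowest day 4 library (6.25 RPKM) and the highest day 7 library (6.24 RPKM) nearly touched. All genes with every day 7 library below every day 4 library made up 24.6%. Between day 0 and day 7 the log2 fold change was -0.78 (95% interval -1.10 to -0.47, adjusted p = 8.23e-05 in limma), and all 21 alternatives called it.

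Sox5 (ENSMUSG00000041540, chromosome 6, 143828425 to 144781977, reverse strand) had the largest fall of the 9 tested genes. It dropped from 1.44, 0.808 and 0.835 RPKM at day 0 to 0.483, 0.272 and 0.382 RPKM at day 4 and 0.351, 0.163 and 0.263 RPKM at day 7. Every day 0 library was above every later one, while day 4 and day 7 overlapped. The log2 fold change from day 0 to day 7 was -1.86 (95% interval -2.32 to -1.40, adjusted p = 4.47e-09 in limma), and all 21 alternatives called it. Its exons share 1330 bases, 9.25%, with the antisense gene Sox5os1, which did not exceed 0.0527 RPKM. RPKM is relative to gene length, and the gene model of Sox5 used for it had 14376 bases, against 8852 bases for Sox6.

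**Figure D2:**
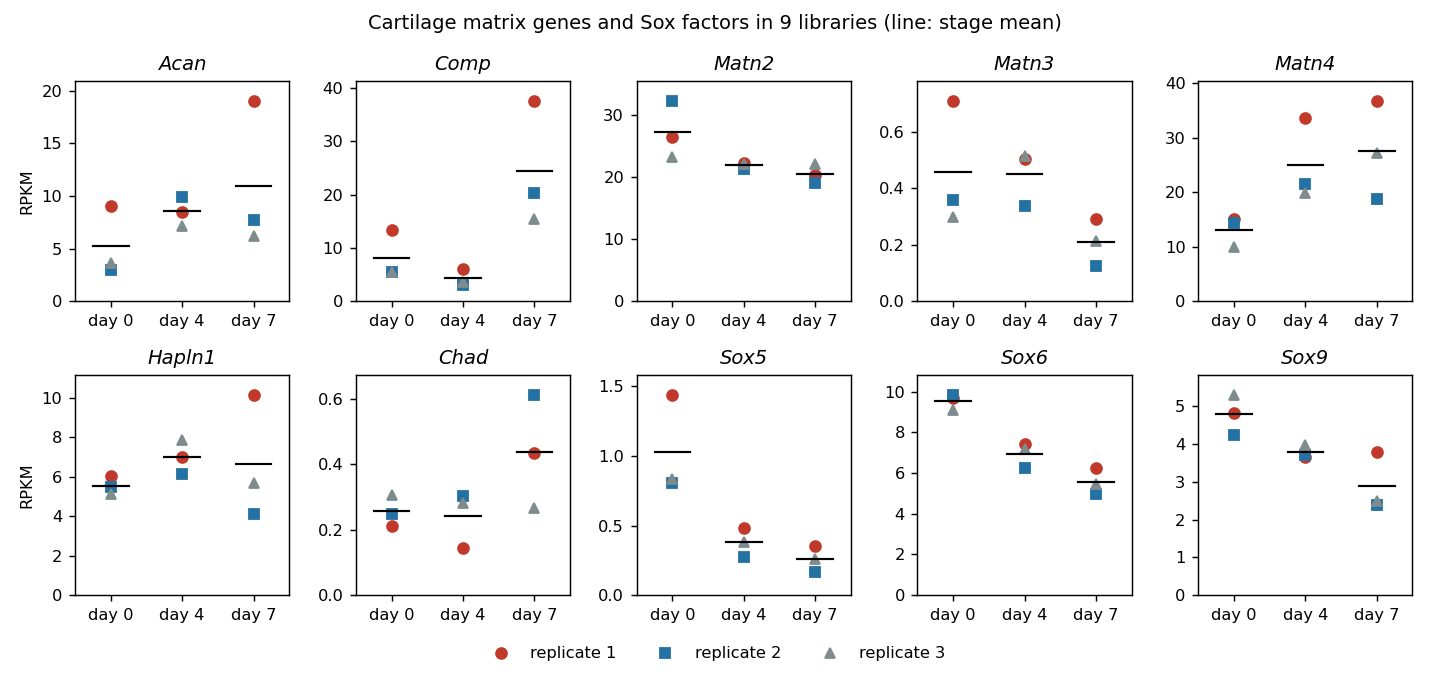
RPKM (y axis, from 0, own scale per gene) of the 10 genes in each of the 9 libraries, by stage (x axis). Symbols mark replicates 1, 2 and 3 and black lines the stage means. Comp and Matn4 reached their highest means at day 7 (24.4 and 27.5 RPKM), Sox5, Sox6 and Sox9 stepped down, and replicate 1 of Acan stood apart at day 0 and day 7.

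With 3 libraries against 3, the exact two-sided permutation test reached its smallest p of 0.1 for Comp, Matn2, Matn3, Matn4, Sox5, Sox6 and Sox9, the 7 genes with stages that did not overlap. Of all genes, 42.3% had day 0 and day 7 libraries that did not overlap. The same exact permutation test gave p = 0.8 for Hapln1 and p = 0.2 for Chad. Day 4 entered no test. Compared with day 0, Matn4 and Hapln1 were higher in every day 4 library and Matn2, Sox5, Sox6 and Sox9 were lower in every one, against 43.3% of all genes without overlap. Between day 4 and day 7, only Comp was higher and only Matn3 and Sox6 were lower in every library, against 38.5%. The study's own limits of a mean above 2 RPKM and a fold over 2 between any stages were met by Acan, Comp and Matn4, 3 of the 7 genes above 2 RPKM, and by 13.1% of the 10546 genes above 2 RPKM. Without day 0 replicate 3, or without day 7 replicate 1, 1 gene met them.

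The order of the 10 levels shifted over the culture. At day 0 Matn2 was highest and separate from Matn4, which was separate from Sox6. Sox6, Comp, Hapln1, Acan and Sox9 each overlapped their next neighbour, and Sox5 lay apart below them and above Matn3 and Chad, which overlapped. At day 4 Matn4 and Matn2 led and overlapped. At day 7 Matn4, Comp and Matn2 led and each overlapped the next, with Acan next, apart from Matn2. The highest Acan library (19.02 RPKM) still reached into the ranges of Comp and Matn4. Sox6 exceeded Sox9 and Sox9 exceeded Sox5 in all 9 libraries, and the ratio of Sox9 to Sox6 stayed between 0.431 and 0.610. The ratio of Sox5 to Sox6 was 0.0821 to 0.149 at day 0 and 0.0329 to 0.0563 at day 7.

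**Figure D3:**
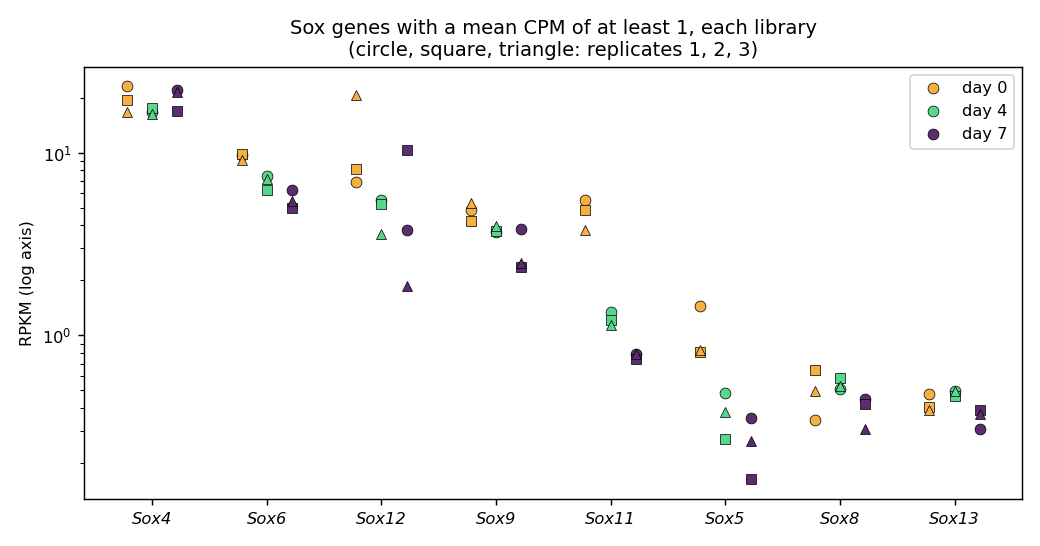
RPKM (y axis, log scale) of the 8 Sox genes that passed the filter in each library. Colours mark the stage, and circles, squares and triangles mark replicates 1, 2 and 3. Sox4 stayed within 16.4 to 23.1 RPKM at all stages, whereas Sox5, Sox6, Sox9 and Sox11 were highest at day 0.

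Other Sox genes did not all follow. Of 16 examined, 5 were tested, none rose, and Sox11 and Sox12 fell. Sox11, a progenitor factor of the SoxC group, went from 3.76 to 5.50 RPKM at day 0 to 0.743 to 0.793 RPKM at day 7 (log2 fold change of -2.50, SE 0.18). Sox12 varied widely between libraries, from 6.90 to 20.73 RPKM at day 0, and its call was lost with TMM scaling (adjusted p = 0.145 in limma). Sox4 (log2 fold change of 0.03, SE 0.16) and Sox8 (-0.23, SE 0.27), the latter a close relative of Sox9, did not pass. Sox10, the third member of that subgroup and a glial marker, had at most 24 reads.

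The matrix genes were further set beside their molecular partners. Counts for these lists stand against 12.6% of all genes tested called higher and 18.6% called lower. Of the 8 collagens of cartilage, 2 rose and 3 fell. Col2a1, the type II collagen gene, fell from 420, 140 and 158 RPKM at day 0 to 92.8, 29.2 and 38.5 RPKM at day 7, a log2 fold change of -2.16 (SE 0.26). Its day 4 values of 145, 33.9 and 64.3 RPKM overlapped both stages, and only their mean (81.1 RPKM) lay between those of day 0 (239.3) and day 7 (53.5). Col9a1 (-1.04, SE 0.20) and Col9a3 (-1.38, SE 0.27) fell as well, while Col9a2 (-0.26, SE 0.26) did not pass. The stages of Col9a3 overlapped, at 33.9, 10.9 and 12.4 RPKM at day 0 and 12.8, 3.18 and 6.08 RPKM at day 7. Col11a2 rose by the most (log2 fold change of 3.46, SE 0.22), from 8.75 to 26.28 RPKM at day 0 to 133 to 153 RPKM at day 7. Col10a1, the hypertrophic collagen, rose by 1.54 (SE 0.23) and remained below 3.75 RPKM. Col11a1, at 116 to 216 RPKM over all libraries, had a log2 fold change of 0.40 (SE 0.18, adjusted p = 0.0857 in limma). Thus Col2a1 fell while mean Acan was higher at day 7, with stages that overlapped and a call held by 14 of 21 alternatives. The ratio of Col2a1 to Acan was 43.4 to 47.3 at day 0 and 3.79 to 6.24 at day 7.

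Among 12 relatives of the matrix genes, 9 were tested, of which 4 rose and 4 fell. Vcan, the versican gene and closest relative of Acan in connective tissue, fell by 1.53 on the log2 scale (SE 0.16). Hapln4 rose by 3.96 (SE 0.23) and Hapln3 by 2.01 (SE 0.27), both link protein genes. Of the thrombospondins, the family of COMP, Thbs1 (-1.79, SE 0.21), Thbs2 (-1.08, SE 0.18) and Thbs3 (-0.82, SE 0.17) fell, while Thbs4 rose (1.93, SE 0.31) from at most 0.0508 RPKM at day 0. Of 16 other cartilage matrix genes, 7 were tested. Cilp (3.39, SE 0.29) and Mgp (0.65, SE 0.16) rose, and Cnmd, which encodes the angiogenesis inhibitor chondromodulin, fell by 2.66 (SE 0.35).

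Genes that build and cut the sugar chains and core of aggrecan moved both ways. Of 28 genes of chondroitin sulfate and hyaluronan synthesis, 9 rose and 4 fell, with Chst13, a chondroitin 4-sulfotransferase, at the top (2.86, SE 0.28) and Csgalnact1, which starts chondroitin chains, at the bottom (-1.79, SE 0.20). Papss2, which makes the sulfate donor, rose by 0.60 (SE 0.16). Of 10 proteases, 4 rose and 4 fell. Adamts5, the major aggrecanase of mouse cartilage, fell by 2.44 (SE 0.16), and Adamts15 rose by 2.41 (SE 0.23). Of 22 chondrocyte signals and factors, 16 were tested, 9 rose and 2 fell. Mef2c, a factor of hypertrophic chondrocytes that bone cells also express, rose by 3.19 (SE 0.16), Wwp2, the host gene of a cartilage microRNA, rose by 0.44 (SE 0.16), and Foxc1 fell by 0.83 (SE 0.17). Together, 82 of the 110 related cartilage genes, other Sox genes included, were tested, 30 rose and 20 fell. Over all genes tested, 12.6% were called higher and 18.6% lower.

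Several of the cartilage genes were higher in replicate 1 than in the other replicates of its stage. In replicate 1, Acan was 2.80 times the pooled value of the other replicates at day 0 (95% counting interval 2.50 to 3.13) and 2.80 times at day 7 (2.61 to 3.00), but 0.989 times at day 4 (0.938 to 1.04). For comparison, the ratio over all genes had a median of 1.10 and a 5th to 95th percentile of 0.773 to 1.44 at day 0, and a median of 1.06 with 0.822 to 1.37 at day 7. Replicate 1 was singled out after the values were seen.

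Comp had the ratio raised at every stage, at 2.44 (2.09 to 2.86) for day 0, 1.78 (1.58 to 2.01) for day 4 and 2.16 (1.99 to 2.34) for day 7. Sox5 had ratios of 1.76, 1.48 and 1.58, each with an interval above 1. Matn4 was at 1.18, 1.62 and 1.55. Hapln1 and Sox9 departed at day 7 only, at 2.01 (1.81 to 2.24) and 1.56 (1.29 to 1.87), against 1.12 and 1.04 at day 0. Sox6 stayed between 1.01 and 1.19 and Matn2 between 0.920 and 1.03, both within the 5th to 95th percentile of all genes at every stage. The Matn3 ratios of 2.11, 1.19 and 1.65 rested on few reads, with an interval of 0.698 to 3.85 at day 7, and the Chad intervals all included 1.

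The count of tested genes with a ratio above the 95th percentile of all genes was 4 of 9 at day 0 (Acan, Comp, Matn3 and Sox5), 3 at day 4 (Comp, Matn4 and Sox5) and 7 at day 7 (all but Matn2 and Sox6), where the background is 5.0%. By rank alone the pattern was weaker. Replicate 1 was the highest library for 6 of the 10 genes at day 0 and 8 at day 7, against 50.1% and 53.5% of all genes, and for 5 of the 10 at day 4, against 37.6%. Comp, Matn4 and Sox5 had it highest at all 3 stages, as did 10.1% of all genes.

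**Figure D4:**
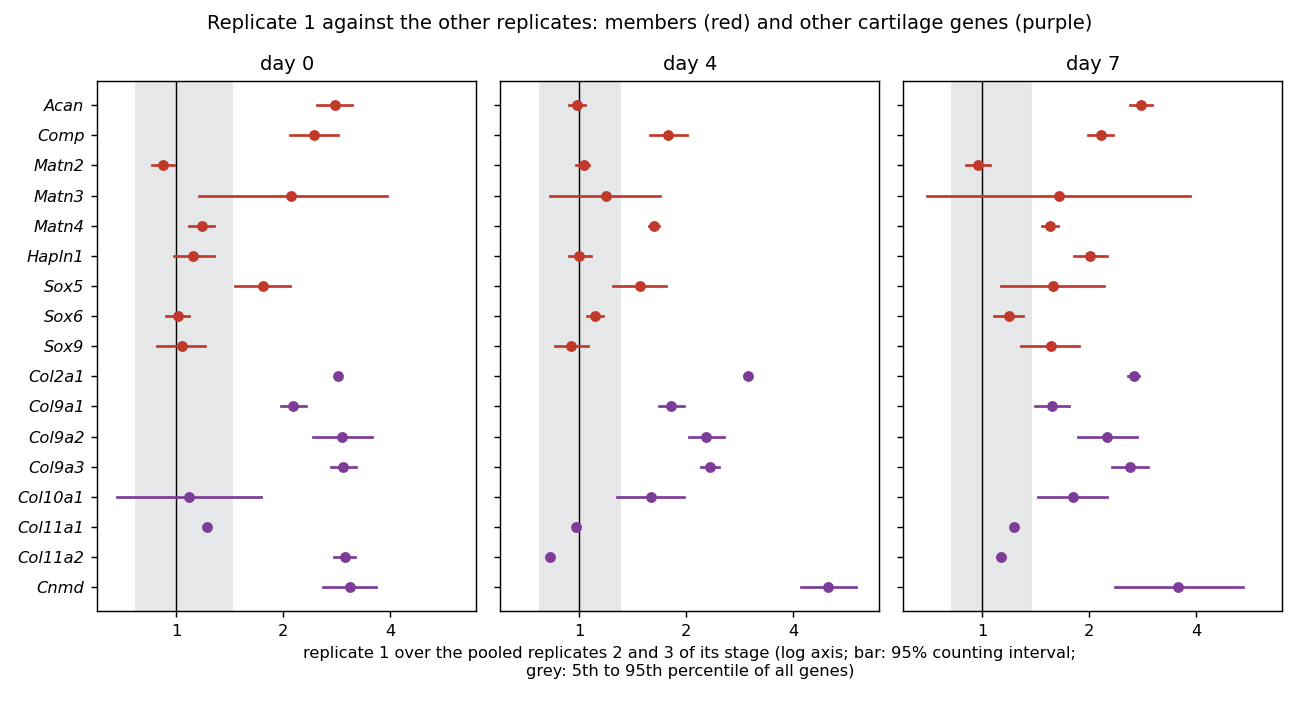
Ratio of the CPM of replicate 1 to the pooled value of replicates 2 and 3 of its stage (x axis, log scale) for 9 of the 10 genes (red; Chad, with few reads, is left out) and 8 other cartilage genes (purple), with 95% counting intervals. Grey bands span the 5th to 95th percentile of all genes. Acan lies at 2.80 at day 0 and day 7 but at 0.989 at day 4, and Col2a1 lies between 2.67 and 2.98 at every stage.

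Several collagens of cartilage shared the excess in the same libraries. Replicate 1 was the highest for 8 of 8 cartilage collagens at day 0 and at day 7, against 50.1% and 53.5% of all genes. At day 4 it was the highest for 5 of 8, against 37.6%. The Col2a1 ratio was 2.85, 2.98 and 2.67 at days 0, 4 and 7, and that of Col9a3 was 2.96, 2.34 and 2.61. Above the 95th percentile were 5 of the 8 at each stage. At day 0, Col10a1 (1.09), Col11a1 (1.22) and Col27a1 (1.25) lay below that percentile of 1.44. Col11a2 had a ratio of 2.98 at day 0, like Acan, but 0.828 at day 4 and 1.13 at day 7. At day 0 the ratio of Col2a1 to Acan was 46.5, 47.3 and 43.4 in replicates 1, 2 and 3, a spread of 1.09-fold, although each gene varied about 3-fold between the same libraries (highest over lowest 3.04 for Acan). At day 4 the same ratio was 17.1, 3.41 and 8.94, a spread of 5.02-fold, and at day 7 it was 4.88, 3.79 and 6.24. Acan and Col2a1 thus varied jointly at day 0 and not at day 4. The ratio of Comp to Acan was likewise narrow at day 0 (1.48 to 1.84) and day 7 (1.98 to 2.65) and wider at day 4 (0.317 to 0.719). Other genes went the other way. The ratios of Hapln1, Matn4 and Sox9 to Acan spread 2.78-, 2.93- and 2.73-fold at day 0 and 1.77-, 1.83- and 1.48-fold at day 4.

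**Figure D5:**
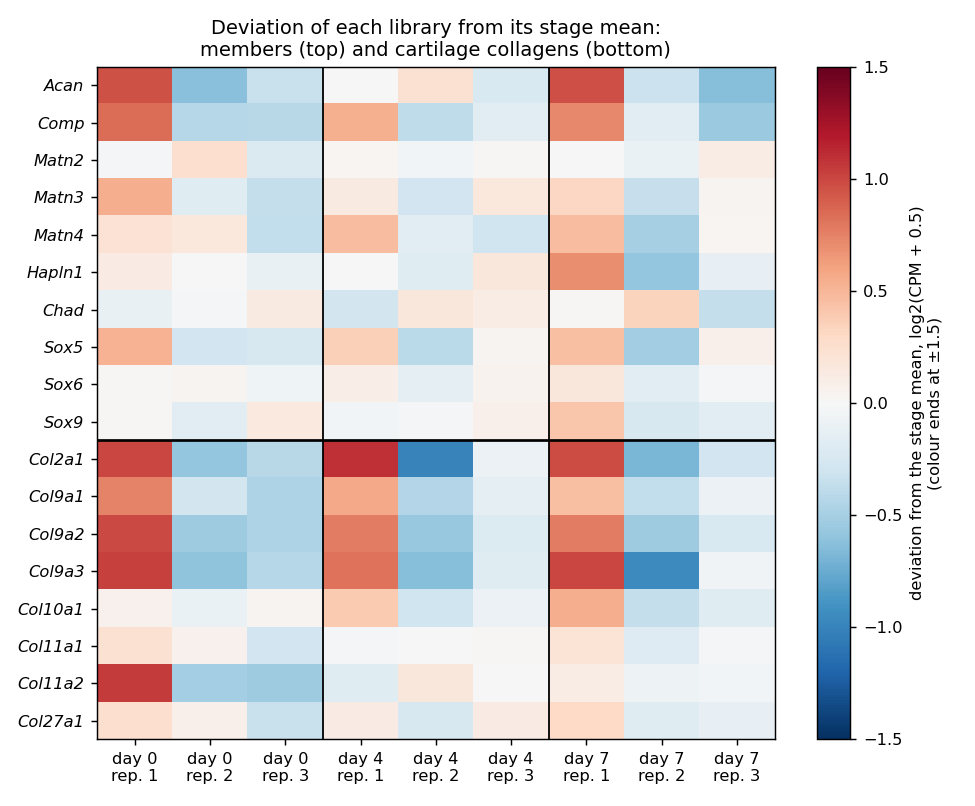
Deviation of log2(CPM + 0.5) in each library from the mean of its stage (colour, ending at ±1.5) for the 10 genes (top rows) and 8 cartilage collagens (bottom rows). Columns are the libraries, grouped by stage. Replicate 1 is red for Acan, Comp, Col2a1 and Col9a3 at day 0 and day 7, with a median deviation of the collagens of 0.87 at day 0, 0.48 at day 4 and 0.50 at day 7, whereas Acan is near 0 at day 4.

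Replicate numbers in the labels do not say whether libraries of different stages came from the same cells, and the libraries of day 0 and day 7 are treated as sharing only a number. Over all genes, the deviations of same-numbered libraries of day 4 and day 7 correlated at 0.102, 0.281 and 0.337 for replicates 1, 2 and 3. Between day 0 and either later stage the same-numbered correlations reached at most 0.0738. Day 0 and day 7 libraries of different numbers reached 0.356, so these values cannot decide whether the numbers pair. Leaving out replicate 1 of both day 0 and day 7 kept the change of Acan at a log2 fold change of 1.06 (adjusted p = 1.85e-04 in limma), Comp at 1.66 and Sox5 at -1.82. Matn2 was no longer called (-0.41, adjusted p = 0.232 in limma). Acan then had only 2 libraries per stage, at 2.97 and 3.63 RPKM for day 0 and 7.70 and 6.17 RPKM for day 7. With all libraries its stages overlapped. This comparison was chosen after the values were seen, and 2275 genes were called in it.

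The genes most like Acan and Sox9 over the 9 libraries were sought among 9100 genes, by the root mean square difference of log2(CPM + 0.5) after centring each gene. For Acan the nearest were Aif1l (0.406), Tmem151a (0.416), Ctsh (0.430), Ier3 (0.441) and Adamts12 (0.453), against a median of 0.767 over all genes. For Sox9 they were Anpep (0.102), Fn1 (0.114), Stard4 (0.115), Atp7a (0.127) and Arhgap31 (0.130), against a median of 0.374. None of the other 9 genes was among the nearest 5 of either.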

How the data were processed

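RNA was ribosome-depleted with Ribo-Zero Gold. According to the methods and the submitters' processing notes, the authors used STAR 2.0.4b for alignment to GRCm38 (Ensembl release 76) and featureCounts for the number of unique, unambiguous reads on each gene. The authors deposited CPM values (reads on a gene scaled to the total on genes) and RPKM values (CPM per kilobase of gene model). Day 0 and day 7 share a table, and day 4 has its own, so it entered no test. Repeated lines of a gene (276 and 273) were identical and used once. Dividing CPM by the worth of 1 read gave whole numbers for 100% of genes in each library, within 0.05 reads. These recovered reads were used for counting intervals and for the count models.

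Day 7 was compared with day 0 by limma 3.58.1 (R 4.3.3) on log2(CPM + 0.5), with a trend of the variance on the mean. The 12712 genes whose mean CPM over the 6 libraries reached 1 were tested, with Benjamini-Hochberg adjustment. The prior had 42.9 degrees of freedom against 4 residual ones. The limma intervals, SEs and p-values therefore lean on the variance typical of a gene's level, more than on the gene's own replicate spread. Counting intervals cover counting error only, since copies made by PCR were not marked. The study describes its replicates as biological without naming the animals behind each, so the spread between libraries is one between these cultures. edgeR 4.0.16 called 5468 genes on the recovered reads. Other alternatives were DESeq2 1.42.0, voomWithQualityWeights, pseudocounts of 0.1 and 1, other filters and scalings, robust variances, a replicate block, and each library left out. The script was tested on simulated data. Named genes were the 10 members, the largest rise and fall of each list, a set of partner genes, and the 5 genes most like Acan and Sox9. The members and lists were chosen with earlier results of these data known. Gene positions come from GENCODE M21 (GRCm38).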

Additional observations from a re-analysis of the deposited data

How the results depend on the processing

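As deposited, 3971 genes were called, 1602 of them higher at day 7. TMM scaling moved the median of all genes by 0.10 on the log2 scale and turned this split into 2825 higher of 5459 (51.7% against 40.3%). None of the 9 tested genes changed direction with it. The count of all genes called ranged from 2906 to 6299 when 1 library was left out, the highest without day 0 replicate 3, and was 6120 with voomWithQualityWeights and 2275 without replicate 1 of day 0 and day 7. Of the 10 genes, 3 were called higher, but 1 with robust variances, and the 4 called lower stayed between 3 and 5. The 3 genes past a mean of 2 RPKM and a fold over 2 became 5 with a fold over 1.5 and 1 to 3 when 1 library was left out. Hapln1 (0.16) ranged from -0.19, without day 7 replicate 1, to 0.45 when 1 library was left out, and changed to -0.13 without replicate 1 of day 0 and day 7. Sox5, Sox6 and Matn4 kept their call in all 21 alternatives. The causes were not tested.

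Replicate numbers were checked for pairing through the deviations from the stage means. Those of same-numbered day 0 and day 7 libraries correlated over genes at -0.0172, -0.181 and -0.444, with no sign of pairing. Same-numbered day 0 and day 4 libraries gave 0.0474, 0.0738 and -0.26. Day 4 and day 7 differed from this: same-numbered libraries gave 0.102, 0.281 and 0.337, against -0.342 to 0.022 for other numbers. Values of this size also arose between day 0 and day 7 libraries of different numbers. Day 0 replicate 3 gave 0.356 with day 7 replicate 2. Day 0 replicates 1 and 2 gave 0.294 and 0.278 with day 7 replicate 3. Shifts of whole libraries enter such correlations, and day 0 replicate 3 was the lowest library of its stage for 81.6% of genes. The check therefore cannot decide whether same-numbered libraries came from the same cells. With the replicate block, 3413 genes were called, including Acan (adjusted p = 3.15e-07 in limma) but not Matn2 (0.0907). The block pairs day 0 and day 7 libraries by number, which the labels do not support. Its prior had infinite degrees of freedom against 2 residual ones, so a gene's own spread did not enter these p-values. Chad and Matn3 are limited by depth.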

Other observations

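A scan of all genes was made after the joint variation had been seen. In 27 of 12710 genes (0.212%), replicate 1 was at least 1.5 times the pooled other replicates at all 3 stages. Comp was the only one of the 10 genes among them. Another 5 were cartilage collagens or other cartilage matrix genes, lists that hold 24 tested genes together with the members: Cnmd (3.08, 5.03 and 3.55 at days 0, 4 and 7), Col2a1, Col9a3, Col9a2 (2.94, 2.28 and 2.25) and Col9a1. The other tested genes of these lists did not meet the limit. Cilp went the other way, at 0.228 at day 4 (95% counting interval 0.190 to 0.272) and 0.315 at day 7 (0.231 to 0.422). Its day 0 libraries held only 6, 5 and 2 reads. Mgp was at 1.23, 1.26 and 1.08. The 4 genes with the largest lowest ratio were Cnmd, Col2a1, Col9a3 and Col9a2. Outside the lists stood Bmp7 (1.84, 2.10 and 2.31), which encodes a bone morphogenetic protein, and Moxd1 (3.64, 1.82 and 1.74). In 8 genes (0.0629%) replicate 1 was at most 1/1.5 of the others at every stage. Among these was Hoxd8 (0.651, 0.389 and 0.440), a homeobox gene. Thbs4, a relative of Comp and a tendon marker, met the limit with 0.244 at day 4 and 0.417 at day 7, but its day 0 libraries held 0, 2 and 1 reads, too few to compare. Whether the libraries numbered 1 share cells was not tested beyond the pairing check, which cannot decide it. Their deviations correlated at 0.102 between day 4 and day 7, 0.0474 between day 0 and day 4 and -0.0172 between day 0 and day 7.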
